A study of Mus musculus with 12 samples.

Results

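AP-1 and immediate early transcription factors are the first genes that many stimuli switch on. The 10 genes described here are the AP-1 genes FOS, FOSB, FOSL1, FOSL2, JUN, JUNB and JUND, the related stress gene ATF3, and the immediate early transcription factor genes EGR1 and MYC. The rule takes them by symbol and uses no measured value, although it was set with earlier results of these data known, and all 10 were found among the 23636 symbols of the expression table. Of them, 9 passed the filter on low values and were tested, and ATF3 did not. CT26 cells are a line from a mouse colon carcinoma, and 4 groups of 3 biological replicates of it were sequenced as bulk RNA. The groups were No treatment, CX3CL1 at 2 µg/ml, IFN-γ at 100 ng/ml, and CX3CL1+IFN-γ, with both proteins at those doses. Treatment lasted 8 hours, and no earlier time was sampled, so a rise that had already passed would not be seen. The labels name no agent other than these, but a passage of the study's text also names TNF-α for cells given IFN-γ before CX3CL1, so whether TNF-α was in the IFN-γ groups cannot be told from the sources used here. CX3CL1, also called fractalkine, is a chemokine that signals through the receptor CX3CR1, and IFN-γ is a cytokine that signals through a receptor coupled to JAK kinases. All values come from a single line, so no group shows how another tumour would respond, and in bulk RNA fewer expressing cells and less RNA per cell cannot be told apart.

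AP-1 is not 1 protein but a family of dimers. Jun proteins bind DNA as pairs with each other or, more tightly, with a Fos protein, while Fos proteins need a Jun partner, so the set of dimers in a cell depends on which subunits it makes. FOS, FOSB, JUNB, EGR1 and ATF3 are classic immediate early genes: growth factors, cytokines and stress switch them on within minutes without new protein synthesis, and the transcripts of several of them are lost again soon after. FOSL1 and FOSL2, which encode Fra-1 and Fra-2, respond later and are often kept at a high level in carcinoma lines by sustained Ras and MAP kinase signaling. MYC encodes a transcription factor that binds DNA with its partner MAX and drives growth and ribosome production.

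The levels are in TPM, which are scaled for gene length and add up to 1000000 in each library, so genes can be set side by side. Read depth is not carried by TPM, and the study's text gives only a target depth per library. The depth reached is unknown here, so no counting error can be given. Between 10613 and 10824 symbols a library had at least 1 TPM, and replicates of a group correlated at 0.9941 to 0.9983 (Pearson, log2(TPM + 1)). Of 12 epithelial and mesenchymal markers and tumour line genes 5 passed the filter. EPCAM was at 0 in all 12 libraries and CDH1, CDX2 and VIL1 stayed under 0.2 TPM. The keratin genes were split. KRT18 (18.4 to 53.6 TPM) and KRT20 (6.44 to 16.8 TPM) were expressed, while KRT8 and KRT19 did not pass the filter and did not exceed 0.364 and 0.0613 TPM. The mesenchymal genes VIM (1684 to 4831 TPM), FN1 and CDH2 were expressed. Of 12 leukocyte markers 4 passed the filter, and PTPRC did not exceed 0.0441 TPM. CD14 (23.7 to 47.5 TPM) made up most of their sum, which ran from 25.7 to 49.9 TPM. S100A8 reached 6.60 TPM, with means of 0.485 untreated, 0.116 with CX3CL1, 1.79 with IFN-γ and 3.05 with both. These markers' part in the results below was not tested.

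The start regions of 3 members are shown because they belong to genes that differ in the results that follow: JUNB, whose level differed most clearly, FOS, whose level was low but did not overlap between groups with and without IFN-γ, and JUN, which was not called in any comparison. Each line is the 250 bases before the RefSeq transcription start on build GRCm38.p6, written 5′ to 3′ on the strand of the gene. Capitals mark every match to the motifs searched.
JUNB, chr8:84978749-84978998, minus strand: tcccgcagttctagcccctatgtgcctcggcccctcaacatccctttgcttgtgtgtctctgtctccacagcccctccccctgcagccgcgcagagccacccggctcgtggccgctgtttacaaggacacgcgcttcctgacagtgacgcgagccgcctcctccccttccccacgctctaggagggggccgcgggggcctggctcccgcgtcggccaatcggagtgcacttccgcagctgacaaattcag
FOS, chr12:85473640-85473889, plus strand: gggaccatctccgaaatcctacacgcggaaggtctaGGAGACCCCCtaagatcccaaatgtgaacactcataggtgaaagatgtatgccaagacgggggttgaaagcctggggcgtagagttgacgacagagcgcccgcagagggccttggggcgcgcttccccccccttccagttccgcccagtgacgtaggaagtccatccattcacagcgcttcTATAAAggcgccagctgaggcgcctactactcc
JUN, chr4:95052223-95052472, minus strand: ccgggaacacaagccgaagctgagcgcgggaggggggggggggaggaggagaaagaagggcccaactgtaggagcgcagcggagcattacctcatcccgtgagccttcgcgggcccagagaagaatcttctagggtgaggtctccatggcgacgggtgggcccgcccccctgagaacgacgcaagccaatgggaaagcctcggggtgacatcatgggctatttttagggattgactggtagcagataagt

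The motifs named here were searched on both strands, from 250 bases before to 50 bases after the start, in the 7 members that the promoter table holds. The other 3, FOSL1, EGR1 and MYC, have no entry. Neither the AP-1 site (TGANTCA) nor the longer cyclic AMP element (TGACGTCA) was matched in any of the 7 windows. Of 32544 distinct promoter windows 7.79% and 1.8% hold them, so 7 windows without a match are near those shares. The CArG box of serum response factor (in 1.64% of windows), the EGR1 site (GCGTGGGCG, 0.618%) and the MYC E-box (CACGTG, 7.17%) had no match either. An NF-κB site, which 8.49% of windows hold, was matched in FOS, FOSB and FOSL2. The TATA letters (TATAAA, 13.6% of windows) were matched in FOS, 33 bases before the start, and in JUNB, at base 1 after it. The 2 matches in FOSL2 overlap each other. A match is only a match of letters, and no match says that the letters are not in this window.

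In untreated CT26 cells Fra-1 transcripts led the Fos family, with 78.8% of its summed TPM, and Fra-2 transcripts made up 19.4%. FOSL1 was at 197 ± 41.7 TPM (SD, n = 3), FOSL2 at 47.6 ± 10.9 TPM, FOSB at 3.76 ± 0.650 TPM, and FOS, the founder of the family, at 0.727 ± 0.222 TPM. The Jun side was more even, with JUND at 61.6 TPM (53.6 to 71.4), JUNB at 61.5 ± 7.68 TPM and JUN at 39.7 ± 3.13 TPM. MYC was at 133 ± 17.4 TPM and EGR1 at 27.7 ± 8.73 TPM. In that order of untreated levels, FOSL1 stood above MYC and MYC above JUND with no overlap of their 3 libraries, and JUND, JUNB, FOSL2 and JUN each overlapped the next gene down, which for JUN was EGR1. EGR1, FOSB, FOS and ATF3 were again separate steps. In the IFN-γ and CX3CL1+IFN-γ groups JUNB was next below MYC and cleared the next gene without overlap.

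**Figure D1:**
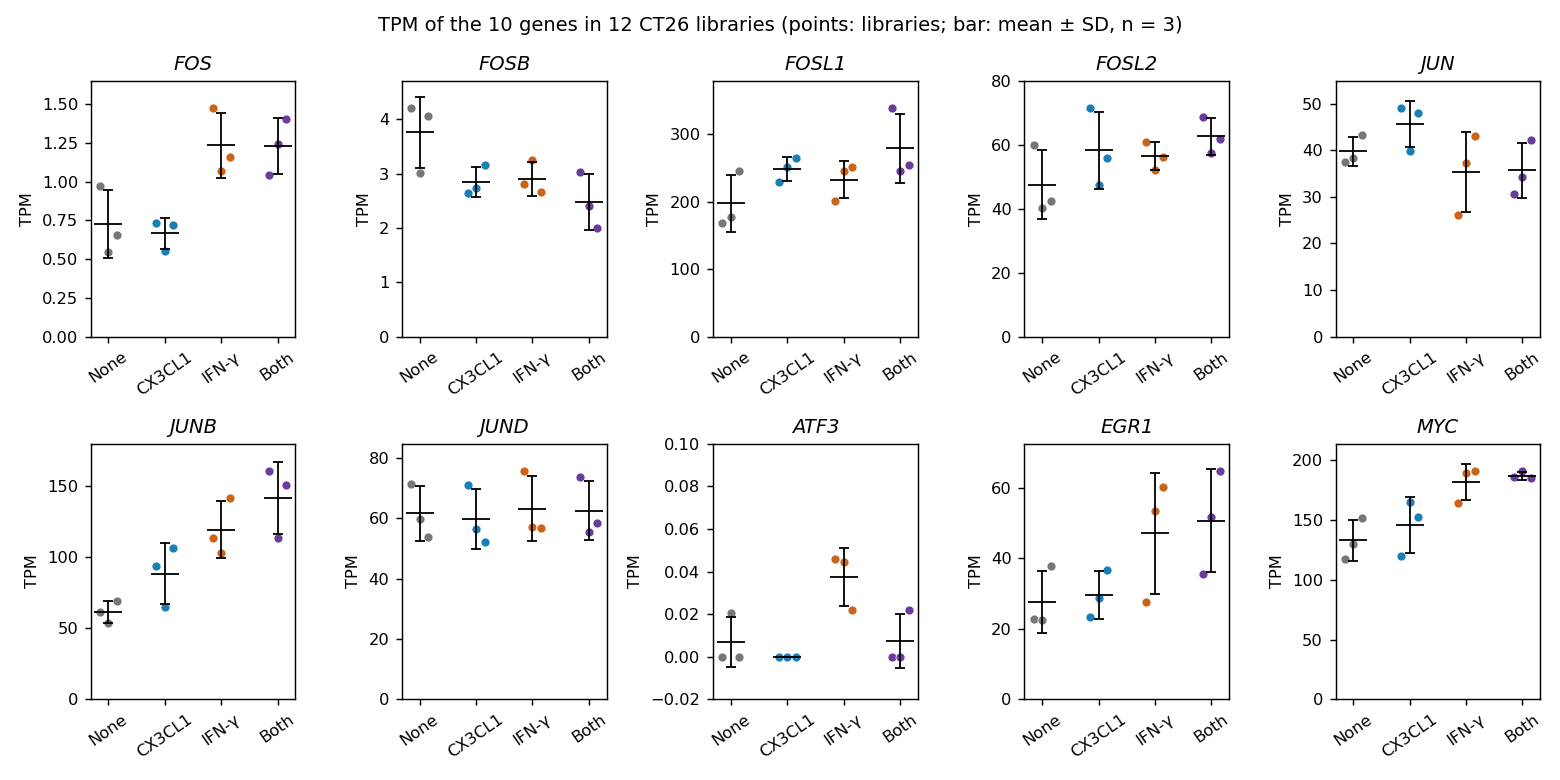
TPM (y axis, linear, a scale for each gene) of the 10 genes in the 4 groups (x axis: None is No treatment, Both is CX3CL1+IFN-γ), with points for libraries and bars for the mean ± SD of 3. JUNB runs from 53.7 TPM in an untreated library to 161 TPM in a CX3CL1+IFN-γ library, and ATF3 does not exceed 0.0461 TPM.

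ATF3 is the stress-induced member of the ATF family. Its row was listed at 0 in 7 of the 12 libraries, including all 3 CX3CL1 libraries, and the highest value was 0.0461 TPM. The IFN-γ libraries had 0.0461, 0.0445 and 0.0220 TPM, above the single untreated library that was not at 0, which had 0.0204 TPM. A row at 0 may be an estimate that failed, so no fold change and no test are given.

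The 9 other members were tested as log2(TPM + 1) with limma over all 11878 genes that averaged at least 0.2 TPM, with all 12 libraries in 1 fit. A gene was called at an adjusted p under 0.05 (Benjamini-Hochberg over all genes tested in that comparison), and fold changes are on the log2(TPM + 1) scale, where the pseudocount of 1 shrinks those of low genes such as FOS. An exact permutation test of 3 libraries against 3 cannot go below p = 0.1, so calls rest on the spread that limma shares between genes. The 3 comparisons with No treatment share the same untreated libraries.

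With CX3CL1 alone, none of the 9 members was called in that fit. Over all genes, 1.78% were called higher and 0.168% lower, and at an unadjusted p under 0.05 there were 3 members (JUNB, FOSL1 and FOSB) and 958 genes. No member separated the CX3CL1 from the untreated libraries, against 11.2% of all genes tested. JUNB, which encodes a Jun protein that can damp as well as drive AP-1 activity, had 61.8, 53.7 and 69.0 TPM without treatment and 94.0, 64.7 and 107 TPM with CX3CL1. The second CX3CL1 library thus lay within the untreated range while the other 2 lay above it. The difference was 0.50 on the log2 scale (standard error 0.19, 95% interval 0.08 to 0.91, adjusted p = 0.408). With 1 library left out it ran from 0.35, without CX3CL1 replicate 3, to 0.70, without CX3CL1 replicate 2, with adjusted p from 0.068 to 0.968.

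FOSL1 had a log2 fold change of 0.35 (95% interval 0.00437 to 0.69, adjusted p = 0.606), with 169, 178 and 245 TPM untreated and 229, 252 and 265 TPM with CX3CL1. FOSB, whose protein resembles FOS, was the member that leaned down, by -0.30 (adjusted p = 0.619). FOSL2 was at 0.29, JUN at 0.19, MYC at 0.13 and EGR1 at 0.11, while FOS and JUND were both at -0.04, and each of these 6 intervals included 0. For FOS the interval was -0.31 to 0.22, for MYC -0.15 to 0.40, and for EGR1 it was wide, from -0.54 to 0.76. Leaving out 1 library moved FOSL2 between 0.14 (without CX3CL1 replicate 1) and 0.47 (without untreated replicate 1), and MYC between 0.03 (without CX3CL1 replicate 2) and 0.26 (without CX3CL1 replicate 1), with neither called. FOSL1 then ran from 0.25 to 0.51 and JUN from 0.14 to 0.28.

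IFN-γ raised JUNB and MYC. JUNB had 114, 103 and 142 TPM in the IFN-γ libraries, all above the highest untreated value of 69.0 TPM. Its mean was 119.6 ± 20.2 TPM against 61.5 ± 7.68 TPM, which is 0.94 on the log2 scale (standard error 0.19, adjusted p = 0.0081). MYC had 165, 189.6 and 191 TPM with IFN-γ, against 117, 129.7 and 152 TPM untreated, so its groups did not overlap either. On the log2 scale it was higher by 0.45 (standard error 0.13, adjusted p = 0.0483). MYC was close to the threshold and lost its call when 1 library was dropped in 5 of 6 cases, with adjusted p up to 0.169, and kept it only without untreated replicate 3 (adjusted p = 0.0414). It also lost the call with no filter (0.0772), under median-ratio scaling (0.109) or quantile normalization (0.0526), and without the intensity trend (0.0569), with the fold change between 0.41 and 0.45. Those 2 calls among 9 members stand beside 5.91% of all genes called higher and 1.94% called lower.

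**Figure D2:**
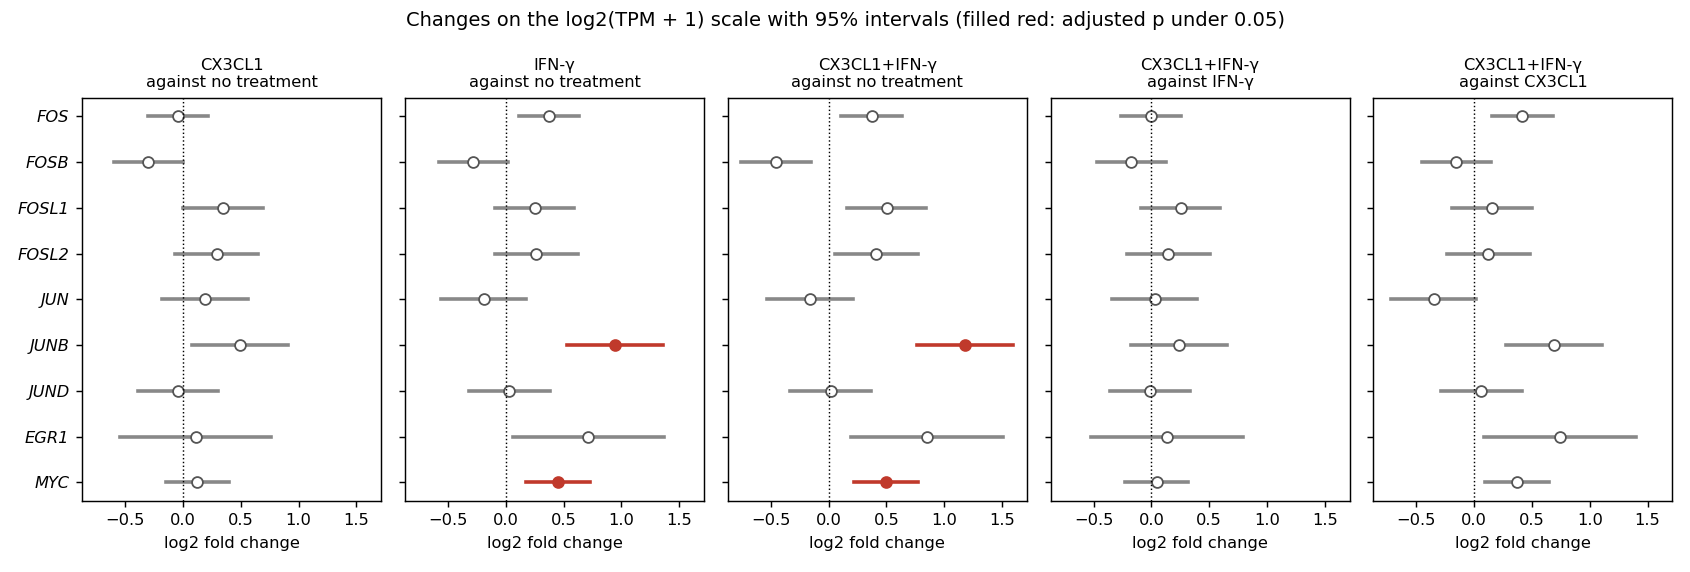
Log2 fold change on the log2(TPM + 1) scale (x axis) of the 9 tested members (y axis) in 5 comparisons, with 95% intervals as lines and members called at an adjusted p under 0.05 in filled red. JUNB and MYC are red in IFN-γ and in CX3CL1+IFN-γ against no treatment, and no member is red in the other 3 panels.

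FOS and EGR1, which serum and growth factors switch on together, were not called in that fit. FOS, at 0.975, 0.549 and 0.656 TPM without treatment, had 1.47, 1.07 and 1.16 TPM with IFN-γ, with no overlap, a log2 fold change of 0.38 (adjusted p = 0.0816). EGR1 had 22.9, 22.4 and 37.7 TPM untreated and 27.7, 53.4 and 60.3 TPM with IFN-γ, so IFN-γ replicate 1 lay within the untreated range. The log2 difference was 0.71 (standard error 0.30, adjusted p = 0.188). With 1 library left out EGR1 ran from 0.50 to 1.05, with adjusted p up to 0.463, and was called in 1 of 6 cases, without IFN-γ replicate 1 (1.05, adjusted p = 0.0469). FOS likewise ran from 0.30 to 0.48, with adjusted p up to 0.279, and was called in 1 of 6, without untreated replicate 1 (adjusted p = 0.041).

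Libraries with the same replicate number deviated together between these groups. With that number as a block, FOS (adjusted p = 0.0353) and EGR1 (adjusted p = 0.0075) were called higher with IFN-γ, next to JUNB (1.0e-04) and MYC (0.0099), where 11.4% of all genes were called higher. FOS, JUNB and MYC separated the IFN-γ from the untreated libraries without overlap, which is 3 of the 9 tested, and 34.2% of all genes tested did so. The share among the members was thus near that of all genes.

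**Figure D3:**
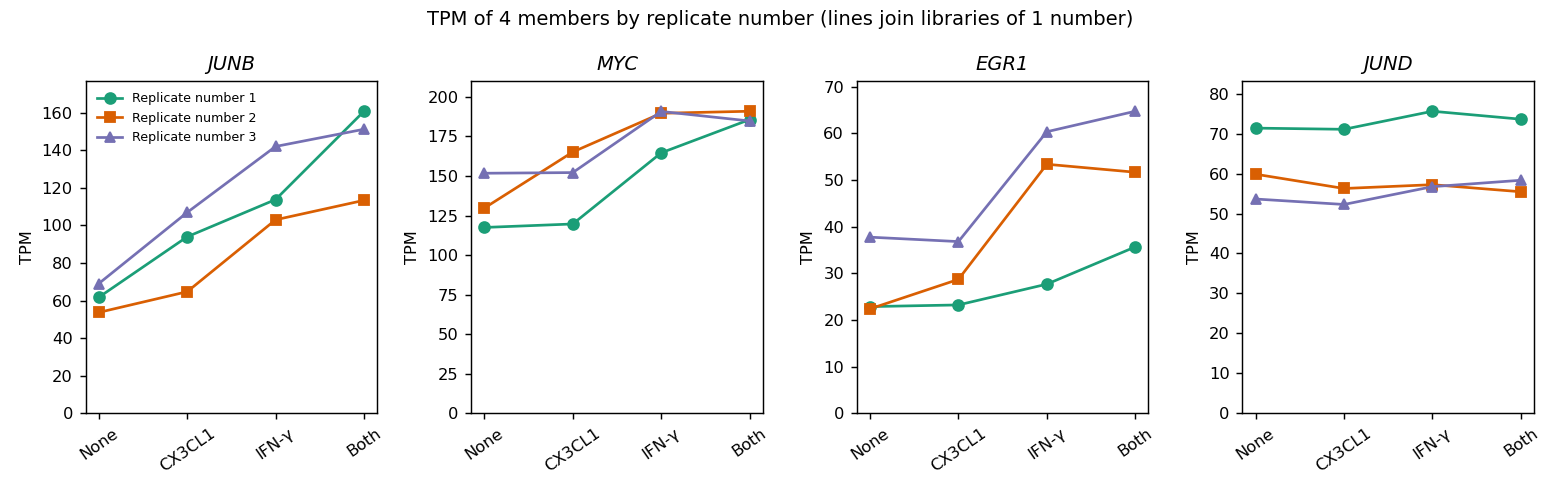
TPM (y axis, linear from 0) of JUNB, MYC, EGR1 and JUND by group (x axis), with lines joining the libraries that carry the same replicate number. EGR1 is highest in replicate number 3 and JUND in replicate number 1 in all 4 groups, and EGR1 differs least between No treatment (22.9 TPM) and IFN-γ (27.7 TPM) in number 1.

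FOSL1 (0.25), FOSL2 (0.27) and JUND (0.03) were not called with IFN-γ, nor were FOSB (-0.28) and JUN (-0.19). With 1 library left out FOSL1 ran from 0.15 to 0.41, FOSL2 from 0.16 to 0.44 and FOSB from -0.40 to -0.21, and none was called. JUN, the strongest activator of the Jun family, had 26.0, 37.2 and 43.0 TPM with IFN-γ and 37.5, 38.4 and 43.3 TPM without, with the lowest value in replicate 1. Its interval ran from -0.56 to 0.18. JUND, whose transcript is known for its steady level, had an interval from -0.32 to 0.38.

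In CX3CL1+IFN-γ, JUNB and MYC were again the called members in the fit with no block. JUNB had 161, 113 and 151 TPM, a mean of 142 ± 25.1 TPM, and stood 1.18 above No treatment on the log2 scale (standard error 0.19, adjusted p = 9.9e-04). MYC had 186, 191 and 185 TPM and stood 0.50 above (standard error 0.13, adjusted p = 0.0216). JUNB kept its call whichever of the 6 libraries was dropped (1.09 to 1.34). MYC again kept its call only without untreated replicate 3 (adjusted p = 0.0174), with adjusted p from 0.0543 to 0.0807 in the other 5, and lost it under median-ratio scaling (0.0578). In this comparison 8.21% of all genes were called higher and 3.72% lower.

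Several members came close to the threshold with both proteins present. FOSB had 3.02, 2.40 and 2.01 TPM against 4.20, 3.01 and 4.06 TPM untreated, and its log2 fold change of -0.45 had an adjusted p of 0.0517. It was called lower under median-ratio scaling (-0.48, adjusted p = 0.0287), under quantile normalization (-0.60, adjusted p = 0.0083), without the intensity trend (adjusted p = 0.0437), without untreated replicate 2 (adjusted p = 0.0276) and without CX3CL1+IFN-γ replicate 1 (adjusted p = 0.0271). FOSL1 had 338, 245 and 254 TPM, a log2 fold change of 0.50 with an adjusted p of 0.0599, and was called in 1 of the 6 cases with a library left out (0.36 to 0.67), without untreated replicate 3 (0.67, adjusted p = 0.0171). FOS (0.37, adjusted p = 0.0665), EGR1 (0.85, adjusted p = 0.0935) and FOSL2 (0.41, adjusted p = 0.139) followed, and FOS (adjusted p = 0.0282) and FOSL2 (adjusted p = 0.0294) were each called in 1 of 6, without untreated replicate 1. FOSL2 then ran from 0.31 to 0.59 and EGR1 from 0.66 to 1.09.

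JUN (-0.16) and JUND (0.02) were the members nearest to 0. In all, 7 of the 9 had an unadjusted p under 0.05 in this comparison, and 2924 of the 11878 genes did. FOS, JUNB and MYC again did not overlap between the groups, beside 31.2% of all genes tested.

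Adding CX3CL1 to IFN-γ gave no member call, with 0.345% of all genes called higher and 0.0168% lower. In that fit no member reached an unadjusted p of 0.05, against 517 genes. The replicate numbers deviated together in this comparison as well. With them as a block in limma, JUNB had an unadjusted p of 0.0355 (adjusted p = 0.562), and again no member was called. JUNB came out at 0.24 (95% interval -0.17 to 0.65), FOSL1 at 0.25 (-0.09 to 0.60), MYC at 0.05 (-0.23 to 0.32) and FOS at -0.0029 (-0.26 to 0.26). No tested member separated the 2 groups, whereas 16.3% of genes did. EGR1 (0.14, interval -0.52 to 0.79) had an interval wide enough to hold both 0 and its own difference with IFN-γ alone.

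Adding IFN-γ to CX3CL1 gave no member call either, but 3 members came close. JUNB was at 0.69 (standard error 0.19, adjusted p = 0.0625), FOS at 0.42 (adjusted p = 0.0741) and MYC at 0.37 (adjusted p = 0.131), and in each of them the CX3CL1+IFN-γ libraries lay above all 3 CX3CL1 libraries, as 19.5% of genes did in either direction. With 1 library left out JUNB ran from 0.48 to 0.84, with adjusted p up to 0.219, and was called in 2 of 6 cases, without CX3CL1 replicate 3 (0.84, adjusted p = 0.045) and without CX3CL1+IFN-γ replicate 2 (0.84, adjusted p = 0.0349). In the same fit 3.76% of all genes were called higher and 0.935% lower. The replicate numbers deviated together in this comparison too, and with them as a block JUNB (adjusted p = 0.0015), EGR1 (0.74, adjusted p = 0.0082), FOS (adjusted p = 0.0291) and MYC (adjusted p = 0.0315) were called higher, where 8.71% of all genes were.

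The interaction asks whether the CX3CL1 effect differs with IFN-γ present. It called 0 genes with limma (0% of those tested), 273 had an unadjusted p under 0.05, and no member was among them. The members ran from -0.25 for JUNB (95% interval -0.84 to 0.33) to 0.13 for FOSB. With the replicate block 52 genes were called, none of them a member. That block includes the CX3CL1 and untreated libraries, whose replicate numbers did not all deviate together.

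The FOSL1 and FOSL2 shares of the Fos family were alike in the 4 group means, while the FOSB share and the makeup of the Jun family were not. FOSL1 made up 72.1% to 83.9% of the summed Fos family TPM in the 12 libraries, with group means from 78.8% to 80.6%. FOSL2 supplied 19.0% on average, FOSB 1.03% and FOS 0.326%. The FOSB share was 1.51% ± 0.243 without treatment, 0.916% with CX3CL1, 0.993% with IFN-γ and 0.716% with both. It was at least 1.36% in each untreated library and at most 1.07% in any treated library. The FOS share was 0.296%, 0.215%, 0.427% and 0.366% in the same order. In the Jun family JUNB held 37.7% ± 3.39 (SD, n = 3) without treatment, 45.3% ± 5.82 with CX3CL1, 54.6% ± 3.62 with IFN-γ and 58.9% ± 2.66 with both. The JUN share was 24.4% ± 2.17, 23.6% ± 1.05, 16.2% ± 3.63 and 15.1% ± 3.05 in the same order. Both IFN-γ groups stood clear of both groups without it, with JUNB shares of at least 52.2% against at most 51.6%, and the JUN shares were also clear of each other, at most 18.8% in the groups with IFN-γ and all higher in those without it. The JUND share went from 37.8% ± 4.94 to 31.1% ± 5.18, 29.2% ± 5.82 and 26.1% ± 2.53 in the same order and overlapped, reaching 35.1% with IFN-γ while an untreated library had 32.3%. These shares are descriptions without a test.

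**Figure D4:**
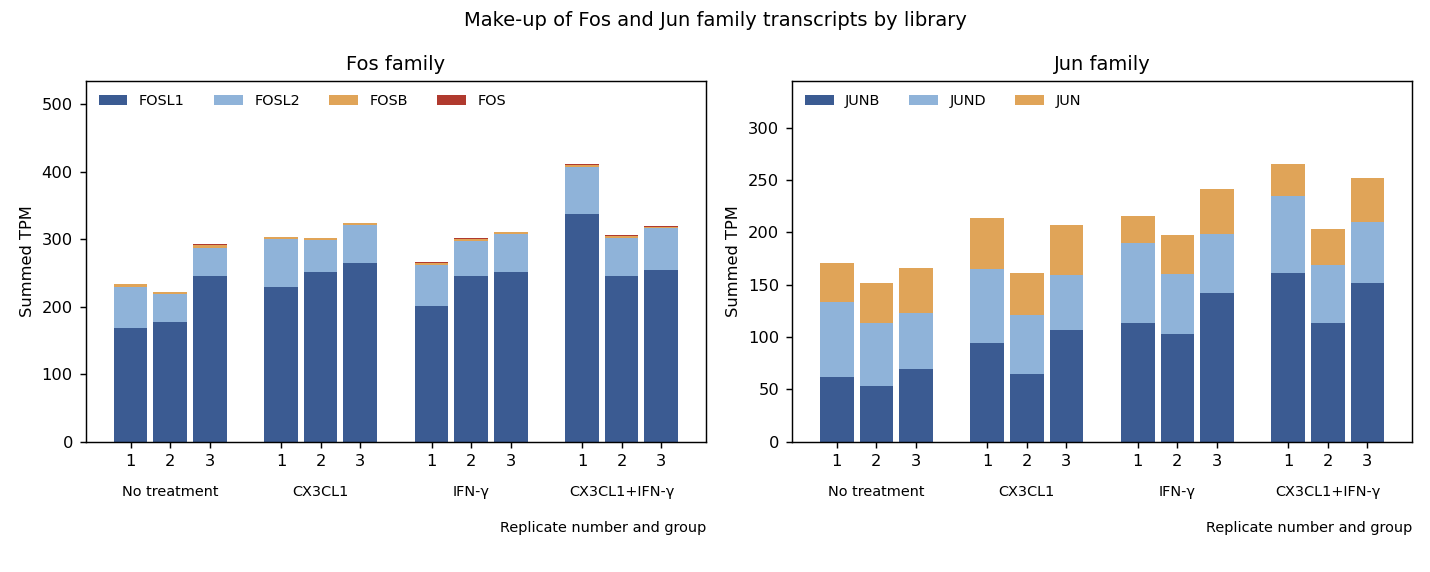
Summed TPM (y axis) of the Fos family (left) and the Jun family (right) in each library (x axis: replicate number within group), split by member. The Fos bars are mostly FOSL1 throughout, while JUNB grows from 37.7% of the Jun bar on average without treatment to 58.9% with both proteins.

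There were thus 1.55 ± 0.129 JUNB transcripts for each JUN transcript without treatment, 1.92 ± 0.305 with CX3CL1, 3.48 ± 0.816 with IFN-γ and 4.05 ± 1.06 with both (SD, n = 3, from TPM). Summed Jun family TPM was 163 ± 9.78, 194 ± 28.9, 218 ± 22.3 and 239.9 ± 32.5 in the same order. The Fos family sum was 249 ± 37.6, 310.3 ± 12.2, 293 ± 23.7 and 346 ± 57.2. Fos family transcripts were in excess over Jun family transcripts in every group, by 1.53, 1.62, 1.35 and 1.44 times.

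In the GENCODE annotation JUNB overlaps PRDX2, a peroxiredoxin gene on the other strand, at its 3′ end. The libraries were strand-specific, but the strand setting used in counting is not given in the sources used here. PRDX2 was at 216 TPM untreated, 204 with CX3CL1, 188 with IFN-γ and 169 with both, and it was not called in any comparison. JUND overlaps an antisense gene, GM11175, that is no row of the table.

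The genes whose levels ran most like those of the called members over the 12 libraries were TBRG1 (Pearson r = 0.976 with JUNB) and CLCF1 (0.969), the latter a cytokine of the IL-6 family. For MYC they were SPINK2 (0.939) and the translation initiation factor subunit gene EIF3C (0.933). Among the members themselves, MYC and EGR1 had the highest correlation (0.843), then JUNB and FOS (0.733), while JUN and JUND were at -0.543. These correlations span 4 treated and untreated groups of the same line and share its libraries, so they are descriptions.

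Other immediate early genes were called in each comparison with No treatment. Of 34 listed, 32 were tested, and 4 were called higher with CX3CL1, beside 1.78% of all genes. With IFN-γ 10 were called higher and 1 lower, beside 5.91% and 1.94%, and with both 14 higher and 1 lower, beside 8.21% and 3.72%. The list was chosen with results of these data known, and no difference from the members was tested. Their median log2 fold changes were 0.20, 0.33 and 0.43, against -0.02, 0.03 and 0.02 over all genes and 0.13, 0.27 and 0.41 over the 9 members. The 4 raised by CX3CL1 were PLK2, a stress-responsive kinase (1.54, adjusted p = 3.3e-04), IER3, an apoptosis regulator (1.31, adjusted p = 0.0123), IER5 (0.68, adjusted p = 0.0406) and ZFP36L1, an mRNA decay factor (0.65, adjusted p = 0.0357). The first 3 of these rose with IFN-γ as well, by 1.31, 1.53 and 0.80.

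IER3 had the largest change of the list, from 77.6 TPM untreated to 195 with CX3CL1, 226 with IFN-γ and 456 with both (2.53 on the log2 scale, adjusted p = 1.6e-05). The growth arrest gene GADD45A rose with IFN-γ (1.20, adjusted p = 0.0019) and was not called with CX3CL1, and its difference between those groups was not tested. CTGF, a matricellular gene, was the 1 that fell, from 35.7 TPM to 17.96 with IFN-γ (-0.97, adjusted p = 0.0161) and 14.97 with both (-1.22, adjusted p = 0.0022).

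Of 27 other bZIP genes, the candidate dimer partners, 20 were tested. With CX3CL1 0 were called at an adjusted p under 0.05 (limma), with 3 at an unadjusted p under 0.05. Over all 11878 genes 1.78% were called higher and 0.168% lower there, and 958 had an unadjusted p under 0.05. A set of 20 genes without a call is near those shares. IFN-γ raised 3, beside 5.91% of all genes called higher and 1.94% lower. BATF2, an AP-1 family member that interferons induce and that pairs with Jun proteins, went from 5.52 to 59.6 TPM (3.06, adjusted p = 3.3e-04). DDIT3, which encodes the stress factor CHOP, went from 103 to 283 TPM (1.40, adjusted p = 0.0019), and NFE2L1 rose by 0.57 (adjusted p = 0.0243). With both proteins the same 3 were called higher, CREM joined them (0.73, adjusted p = 0.0252) and ATF5 fell (-0.56, adjusted p = 0.0256). There 8.21% of all genes were called higher and 3.72% lower. JUNB in untreated cells was thus at 11.1 times the TPM of BATF2 and with IFN-γ at 2.01 times, as ratios of group means.

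**Figure D5:**
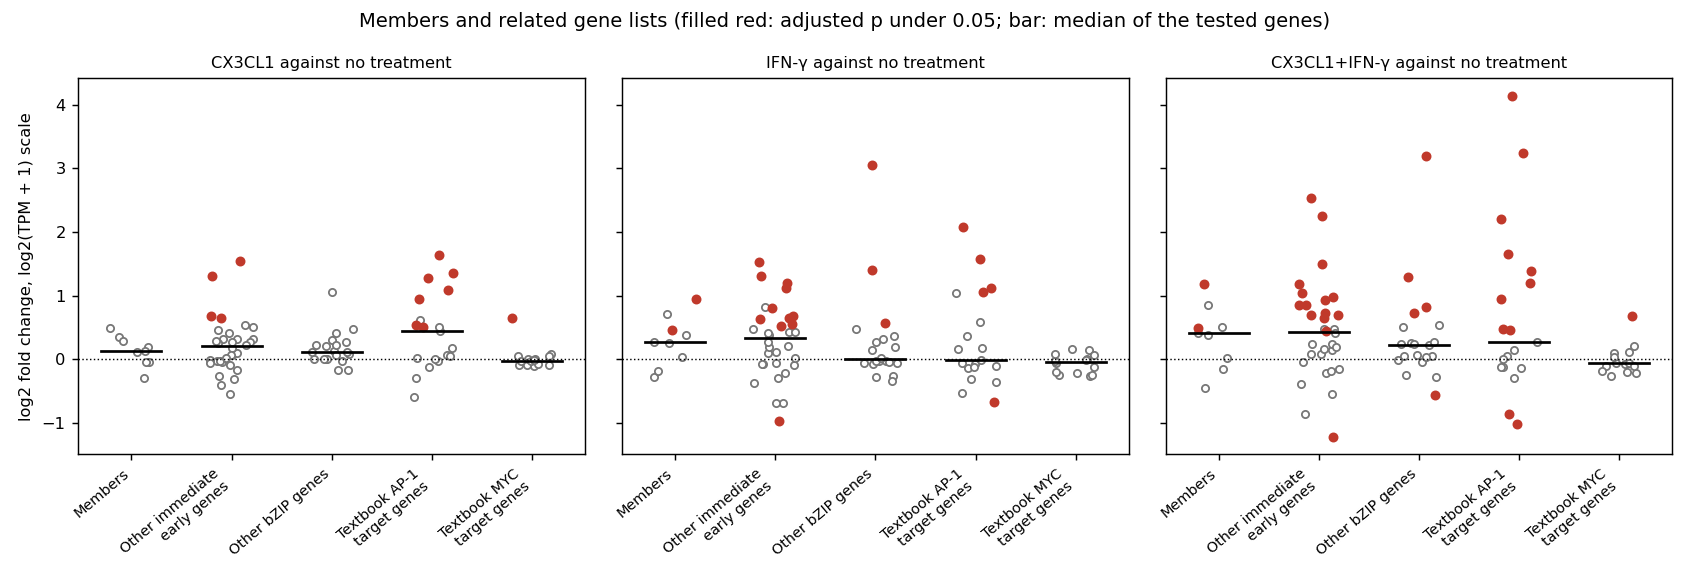
Log2 fold change on the log2(TPM + 1) scale (y axis) of the tested members and 4 gene lists (x axis) against no treatment, for CX3CL1, IFN-γ and both, with genes called at an adjusted p under 0.05 in filled red and the list median as a bar. JUNB and MYC are the red members with IFN-γ and with both. The lists were chosen with results of these data known, so no difference between them was tested.

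Textbook AP-1 target genes include matrix-degrading enzymes and cytokines. Of 20 listed, 19 were tested and 7 were called higher with CX3CL1, beside 1.78% of all genes. The list was chosen with results of these data known, so the count is a description. They included the collagenase gene MMP13 (1.63, adjusted p = 0.0021), the cytokine genes LIF (1.35, adjusted p = 0.0123) and IL6 (1.28, adjusted p = 0.0068), the gelatinase gene MMP9 (1.09) and the stromelysin gene MMP10 (0.94). With IFN-γ 4 were called higher and 1 lower, among them the metallothionein gene MT2 (1.06, adjusted p = 2.0e-04). With both 9 were called higher, including the heme oxygenase gene HMOX1 (1.65, adjusted p = 0.0060), and 2 lower, the keratin gene KRT18 (-1.02) and VIM (-0.86). Over all genes 5.91% were called higher and 1.94% lower with IFN-γ, and 8.21% and 3.72% with both. MMP13 went from 1.43 TPM to 6.58 with CX3CL1, 6.25 with IFN-γ and 22.3 with both. CX3CL1 on top of IFN-γ raised 4 of the 19, beside 0.345% of all genes: IL6 (2.07), MMP13 (1.67), MMP10 (1.03) and MMP3 (0.53). MMP3 passed the filter only through the groups with CX3CL1, and did not exceed 0.755 TPM in any library. It averaged 0.0989 TPM untreated, 0.0422 with IFN-γ, 0.573 with CX3CL1 and 0.502 with both. MMP3 is also counted among the genes called with CX3CL1 and with both. MMP9, counted in both as well, averaged 0.0808 TPM untreated, under the filter value of 0.2 TPM. It passed the filter only through the treated groups, and did not exceed 1.84 TPM in any library. VIM and MMP3 were named after their values were seen. These genes also answer to other factors, such as NF-κB.

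Partners of EGR1 and MYC were called only with both proteins against no treatment, 1 from each list. In that comparison 8.21% of all genes were called higher and 3.72% lower. Of the 4 tested EGR1 partners, only the corepressor gene NAB2 was called, lower with both proteins (-0.48, adjusted p = 0.0169). MAX, the obligate partner of MYC, was not called in any comparison (-0.05 to 0.11), and of the 9 tested MYC network genes only MLXIP was called, higher with both proteins (0.44, adjusted p = 0.0244). Of 14 textbook MYC target genes none was called with IFN-γ (limma), where 5.91% of all genes were called higher and 1.94% lower. A set of 14 genes without a call is near those shares. MYC itself was called higher in that comparison, and the median of the 14 was -0.04. Among the 14, 1 had an unadjusted p under 0.05 in that comparison, as did 2611 of all 11878 genes. ODC1, the ornithine decarboxylase gene, was the 1 called, with CX3CL1 (0.65, adjusted p = 0.0038), with both (0.68, adjusted p = 6.5e-04) and for CX3CL1 on top of IFN-γ (0.62, adjusted p = 0.0242). Of 6 tested serum response factor cofactors and relatives, ELK3, a repressor of the ternary complex, fell with IFN-γ (-0.52, adjusted p = 0.0198) and with both (-0.45, adjusted p = 0.0291).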

How the data were processed

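RNA of 12 CT26 libraries, 4 groups of 3 from the labels, was measured. Doses and time come from the study's text. The authors prepared libraries that keep the strand of the mRNA, aligned reads with STAR 2.7.3a to mm10 and tested counts with DESeq2 1.22.1, tools which the submitters' processing notes name. The deposited values are TPM; how the authors made them and the annotation are not given in the sources used here. Counts were not analysed here.

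From the TPM, log2(TPM + 1) was tested in R 4.3.3 with limma 3.58.1 (lmFit, eBayes with an intensity trend, two-sided), for genes averaging 0.2 TPM or more in the 12 libraries, with no block and Benjamini-Hochberg adjustment within each comparison. The code was tested on simulated data with 200 changed genes. The fits were repeated without the filter, with a stricter one (1 TPM on average), with 0.1 as pseudocount, under quantile normalization or median-ratio scaling, without the trend, on the 6 libraries compared alone, with the replicate number as a block, and without each library.

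Libraries of the same replicate number deviated together, by correlation across genes, for IFN-γ and no treatment (0.429, 0.460, 0.220), for CX3CL1+IFN-γ and IFN-γ (0.630, 0.635, 0.649) and for CX3CL1+IFN-γ and CX3CL1 (0.351, 0.353, 0.428). The labels do not say what a number shares. Nothing in the labels beyond "biological replicate" says that replicates were separate cultures, so p-values measure the spread between these samples.

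Promoters are from RefSeq on GRCm38.p6, matched by symbol for 7 of 10 members. The members and lists were chosen with earlier results of these data known. All 10 members were named, with list genes called in at least 1 comparison by size, at most 8 a list, plus MAX, and the 2 genes most like each called member. The result for 1 further promoter motif is not reported here.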

Additional observations from a re-analysis of the deposited data

How the results depend on the processing

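TPM carry no depth, so only the spread of 3 libraries a group sets the precision, and a member that missed the threshold is not shown to be without change. JUNB with IFN-γ and with both against no treatment was called under every alternative run. The member calls that were lost or gained are given beside the results above, apart from those of the replicate block for CX3CL1 and for CX3CL1+IFN-γ against no treatment, given in the next paragraph. Scaling moved the median of all genes by under 0.1 on the log2 scale, but the share of higher among called genes with IFN-γ went from 75.3% to 64.8% under median-ratio scaling and 50.9% under quantile normalization. With both against no treatment it went from 68.8% to 61.9% and 47.3%, and with both against CX3CL1 from 80.1% to 66.1% and 60.5%.

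The number of members called with IFN-γ (2) was 1 with no filter, under median-ratio scaling, under quantile normalization and with no intensity trend, and 1 to 2 with a library left out. With both against no treatment (2) it was 1 to 3 with a library left out, and with both against CX3CL1 (0) it was 0 to 1. For CX3CL1 and for CX3CL1+IFN-γ against no treatment the numbers do not pair the libraries by the correlation of their deviations (0.387, 0.005 and 0.301; 0.312, 0.447 and 0.032), and 4 of 6 libraries in each correlated best with their own number. The replicate block there called 1 member (JUNB, adjusted p = 0.0196) and 7 members (all tested but JUN and JUND, with adjusted p of 0.0303 for FOS, 0.0354 for FOSB, 0.0435 for FOSL1, 0.0102 for FOSL2 and 0.0018 for EGR1), and 455 and 2464 genes in place of 232 and 1417. In the comparisons whose numbers pair the libraries, it called 4, 0 and 4 members (IFN-γ against no treatment, both against IFN-γ, both against CX3CL1) and 1929, 95 and 1369 genes, and 52 genes for the interaction. Beyond those, it changed no member's call.

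The number of genes called, with a library left out, ranged from 152 to 268 for CX3CL1 (232 with all), from 530 to 764 for IFN-γ (932), from 924 to 1345 for both against no treatment (1417), from 16 to 54 for both against IFN-γ (43), from 270 to 668 for both against CX3CL1 (558) and from 0 to 11 for the interaction (0). The lowest came without untreated replicate 3 for the first 2 of these and without CX3CL1+IFN-γ replicate 3 for the next 3. For both against IFN-γ it was 28 with no filter and 20 with only the 6 libraries compared, for both against CX3CL1 it was 344 with only the 6 libraries compared, and for the interaction it was 1 under quantile normalization.

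Changes of sign occurred only in uncalled values near 0. JUND was at -0.01 under median-ratio scaling and -0.02 under quantile normalization with IFN-γ, at -0.02 and -0.06 with both against no treatment, and at -0.004 under median-ratio scaling with both against CX3CL1. FOS was at 0.0004 and 0.004 under those 2 scalings with both against IFN-γ. With a library left out, CX3CL1 against no treatment ran from -0.12 to 0.06 for FOS, from -0.17 to 0.07 for JUND and from -0.05 to 0.35 for EGR1. IFN-γ against no treatment ran from -0.10 to 0.14 for JUND and from -0.34 to 0.01 for JUN, and both against no treatment from -0.10 to 0.13 for JUND. Both against IFN-γ ran from -0.06 to 0.07 for FOS, from -0.17 to 0.18 for JUN, from -0.14 to 0.12 for JUND, from -0.20 to 0.36 for EGR1 and from -0.02 to 0.08 for MYC. Both against CX3CL1 ran from -0.06 to 0.19 for JUND and from -0.01 to 0.28 for FOSL2. Of the other alternative values of single members, 554 kept direction and side of the threshold, 24 gained a call and 15 lost one. The RefSeq protein comparison of the leucine zippers was not run.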

Other observations

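Some members were highest in the same replicate number in every group. JUND was highest in replicate 1 of all 4 groups, at 71.4, 71.1, 75.6 and 73.6 TPM (No treatment, CX3CL1, IFN-γ, CX3CL1+IFN-γ), while the other 8 libraries ran from 52.3 to 59.8 TPM. FOSL2 was also highest in replicate 1 of all 4 groups, at 60.1, 71.5, 61.0 and 68.9 TPM. EGR1 was highest in replicate 3 of all 4 groups, at 37.7, 36.8, 60.3 and 64.7 TPM. JUNB and FOSL1 were highest in replicate 3 of 3 groups and in replicate 1 of CX3CL1+IFN-γ. The labels do not say what a replicate number shares, and what it shares was not tested.

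KRT18 and VIM, members of the AP-1 target list that also mark epithelial and mesenchymal cells, were the 2 called lower with both proteins. KRT18 was at 45.3 TPM untreated, 29.6 with CX3CL1, 27.5 with IFN-γ and 21.5 with both. VIM was at 4174, 3399.9, 2899 and 2359.6 TPM in the same order.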
